A study of Mus musculus with 6 samples.

Results

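The heat shock proteins and their J-domain co-chaperones were followed in hippocampal RNA taken 24 h after a traumatic brain injury (TBI). Members were the protein-coding genes whose GENCODE vM21 symbols belong to the Hspa, Hspb, Hspd, Hspe, Hsph, Hsp90 and Dnaja, Dnajb and Dnajc families, together with Hsf1, Hsf2, Bag3 and Cryab. The rule found 78 genes among 52550 gene identifiers. They comprised 9 small heat shock proteins, 14 members of the Hsp70 group, 3 of the Hsp90 group, 2 chaperonins, 45 J-domain proteins, the cofactors Hspbp1 and Hspbap1, and the regulators Hsf1, Hsf2 and Bag3. A further 13 names that fit the families were pseudogenes and were not members.

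The animals were young adult male C57BL / 6 mice, C57B6/J in the study's methods, with 3 mice in the sham group (Sham1 to Sham3) and 3 in the TBI group (TBI1 to TBI3) and 1 library per mouse. TBI was made by controlled cortical impact, in which a piston strikes the exposed cortex of the right hemisphere. Sham mice had the craniotomy without the impact, so opening of the skull, ketamine and xylazine anaesthesia and a heating pad were shared by both groups. Hippocampi were dissected from the brain after the overlying cortex was removed, and the RNA is that of whole tissue. In such bulk RNA, fewer cells of a type and less RNA per cell cannot be told apart.

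The estimated counts summed to between 31630936 and 41771872 per library, and the members held 0.869% to 1.07% of them. Levels are given as CPM, which are counts relative to library sizes scaled by the TMM method. Sham2 stood apart from the other libraries in several marker lists. Of all tested genes, 23.7% were highest and 23.0% lowest in Sham2. All 11 genes of a list for injury and reactive glia, drawn up after values had been seen, were highest in Sham2, where they summed to 5209 CPM against 641 to 1784 CPM in the other 5 libraries. Since those genes were picked with the values known, their count is a description of this library. The 5 astrocyte markers went both ways, with 2 highest and 3 lowest in Sham2. All 5 oligodendrocyte markers were lowest there, with a sum of 2000 CPM against 6070 to 7450 CPM, as were all 5 markers of ependyma, with a sum of 14.1 CPM against 26.5 to 38.2 CPM. The 4 choroid plexus markers summed to 49.0 CPM in Sham2, 235 CPM in TBI1 and 249 CPM in TBI3, against 1998 to 2317 CPM in Sham1, Sham3 and TBI2. In TBI1, all 6 striatum markers were highest, with a sum of 3398 CPM against 116 to 183 CPM in the others. The 8 markers of hippocampal neurons were present in every library, and 6 of the 8 were lower and 2, Snap25 and Wfs1, higher in TBI. Their sum was 4470, 4241 and 4015 CPM in Sham1 to Sham3 and 3267, 3686 and 3557 CPM in TBI1 to TBI3, of which Slc17a7 made 1662, 1810 and 1253 CPM in sham and 693, 1199 and 837 CPM in TBI. The part of these markers in the levels of the members was not tested. Values with 1 library left out are given beside many of the members.

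Heat shock proteins are molecular chaperones, which bind unfolded or partly folded proteins and keep them from aggregating. Hsp70 proteins bind and release client proteins in a cycle driven by ATP. J-domain proteins deliver clients to Hsp70 and stimulate its ATPase, and Hsp90 takes over many clients, such as kinases and steroid receptors, at a later stage of folding. Small heat shock proteins hold unfolded proteins without using ATP. Under proteotoxic stress the transcription factor HSF1 binds heat shock elements, inverted repeats of the unit GAA spaced by a few bases, and induces the inducible members. In brain injury, Hspb1 is known as a protein of reactive astrocytes and of stressed neurons, and inducible Hsp70 as a marker of stressed cells.

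No member passed the test between TBI and sham. Of the 78 members, 71 passed the filter on low counts and went into edgeR's quasi-likelihood fit. A call required a fold change over 1.5, an unadjusted p under 0.05 and an adjusted p under 0.1, which 0 members met, as did 0% of the 18795 genes tested. At an unadjusted p under 0.05 there were also 0 members, beside 4.29% of all genes. The smallest unadjusted p among the members was 0.0724, for Hspa1b, and every Benjamini-Hochberg adjusted p was at least 0.982. DESeq2 with its defaults called 0 members, beside 0.221% of all genes. It gave 3 of the members an unadjusted p under 0.05, beside 5.36% of all genes, namely Hspb1, Hspa1b and Hspa1a. The smallest adjusted p from DESeq2 among the 3 was 0.778, that of Hspa1b.

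The log2 fold changes of most members were small. They were positive (higher in TBI) for 28 members and negative for 43, and 48 of the 71 (67.6%) lay within 0.2 of zero, beside 51.1% of all tested genes. Their median was -0.046, beside 0.0091 over all tested genes. By group, the medians were -0.11 for the small heat shock proteins, -0.16 for the Hsp70 group, 0.037 for the Hsp90 group and -0.0063 for the J-domain proteins. The 3 libraries of TBI did not overlap those of sham for 4 members that were higher in TBI, beside 4.77% of all genes, and for 2 that were lower, beside 5.45%. Those higher were Cryab, Dnajb4, Dnajb2 and Dnajc24, and those lower were Dnajc6 and Dnajb14. Set against these shares of all genes, 4 of 71 members is near the background and 2 of 71 is below it.

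**Figure D1:**
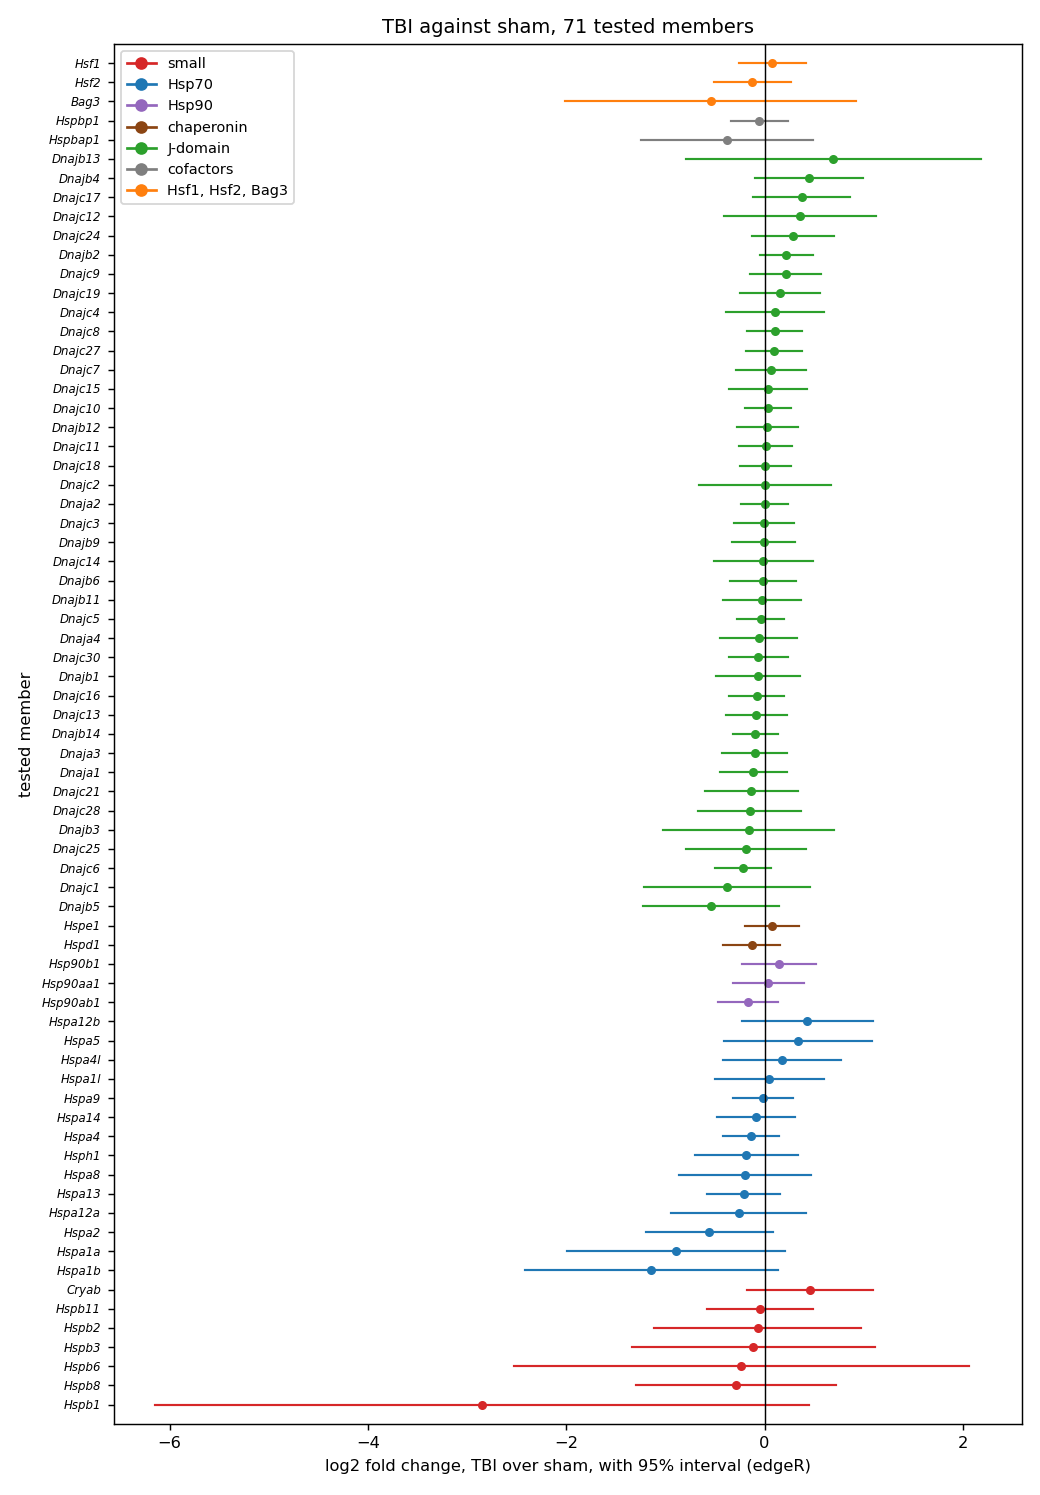
Log2 fold change of TBI over sham (x axis) for each of the 71 tested members (y axis), from edgeR over 6 libraries. Points are estimates and lines are 95% intervals, coloured by group. Every interval crosses zero, and the widest is that of Hspb1, from -6.15 to 0.45.

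Among the small heat shock proteins, 4 of the 7 tested members (Hspb1, Hspb6, Hspb8 and Cryab) had a range over 2-fold within sham, and for each of them Sham2 was the highest or the lowest library. Of all tested genes, 26.8% had such a range within sham. Sham2 was the highest library for 23.7% of all tested genes and the lowest for 23.0%. Hspb1 (chr5:135887919-135889563, plus strand, GRCm38) encodes the small chaperone HSP25, which also binds actin. Its level was 4.82 CPM in Sham1, 323 CPM in Sham2 and 23.7 CPM in Sham3, and it was 23.0, 16.0 and 9.78 CPM in TBI1 to TBI3. Sham2 was thus 13.6 times as high as the next library, Sham3, and the other 2 sham libraries lay below and above the TBI range. The log2 fold change was -2.85 ± 1.38 (SE, n = 3 mice per group) and the adjusted p by edgeR's quasi-likelihood test was 0.982. Without Sham2 it was 0.19 ± 0.69 (SE) in the same test, with an adjusted p of 0.999.

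The reads of 2 other loci followed Hspb1. The pseudogene Hsp25-ps1 shares 86.6% of its stretches of 50 bases with Hspb1, and it had 28.1 CPM in Sham2 and 0.444 to 1.95 CPM in the other libraries. Gm9817, which shares 15.9% of its stretches, had 27.6 CPM in Sham2 and 0.568 to 2.16 CPM elsewhere. Reads of Hspb1 could be split among these loci, so its own level is uncertain to that extent.

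The stretch before the start of Hspb1 is shown because it holds the letters of the heat shock element, GAANNTTC, at 2 places. The sequence is from the RefSeq promoter table of GRCm38.p6, chr5:135887789-135887918, plus strand, and covers bases -130 to -1 from the start, with each match in capitals. The first match begins at base -117 and the second at base -97.
Hspb1: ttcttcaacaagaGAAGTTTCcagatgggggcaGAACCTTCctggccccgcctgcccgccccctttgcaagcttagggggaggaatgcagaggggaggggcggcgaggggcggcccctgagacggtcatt

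Hspb6 and Hspb8 had their highest value in the same library as Hspb1. Hspb6 encodes HSP20, a small chaperone of muscle and astrocytes, and its level was 4.35, 37.4 and 4.19 CPM in Sham1 to Sham3 and 24.0, 8.85 and 6.24 CPM in TBI1 to TBI3. Sham2 and TBI1 were the high libraries, while Sham1 and Sham3 lay below every TBI library. The log2 fold change of Hspb6 was -0.23 ± 0.96 (SE), and without Sham2 it was 1.61 ± 0.62 (SE) with an unadjusted p of 0.0426 and an adjusted p of 0.997 by edgeR's quasi-likelihood test. Hspb8, a partner of the co-chaperone BAG3 in the selective autophagy of misfolded proteins, had 20.4, 55.9 and 27.8 CPM in the sham libraries and 32.4, 34.7 and 18.0 CPM in the TBI libraries. Its ranges overlapped, and its log2 fold change was -0.29 ± 0.42 (SE) with Sham2 and 0.23 ± 0.32 (SE) without it.

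Cryab, which encodes alpha-B-crystallin and is abundant in oligodendrocytes and astrocytes, had the opposite pattern among the sham libraries. Its level was 55.9, 28.2 and 56.4 CPM in Sham1 to Sham3 and 65.5, 66.1 and 61.0 CPM in TBI1 to TBI3, so that Sham2 was the lowest library and the groups did not overlap. The log2 fold change was 0.46 ± 0.27 (SE), with an adjusted p of 0.982 by edgeR's quasi-likelihood test, and 0.19 ± 0.12 (SE) without Sham2. The oligodendrocyte markers had their lowest values in the same library, and their part in the level of Cryab was not tested. Cryab shares 252 exonic bases with Hspb2 on the opposite strand, and the strandedness of the libraries is not given in the sources used here.

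The remaining small heat shock proteins were low. Hspb11, a component of intraflagellar transport, had 6.08 to 9.04 CPM in sham and 6.49 to 7.67 CPM in TBI. Hspb2 and Hspb3, which are known from muscle, had at most 1.07 and 0.833 CPM in any library. Hspb7 and Hspb9 did not pass the filter on low counts, with at most 9 and 11 counts in a library.

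**Figure D2:**
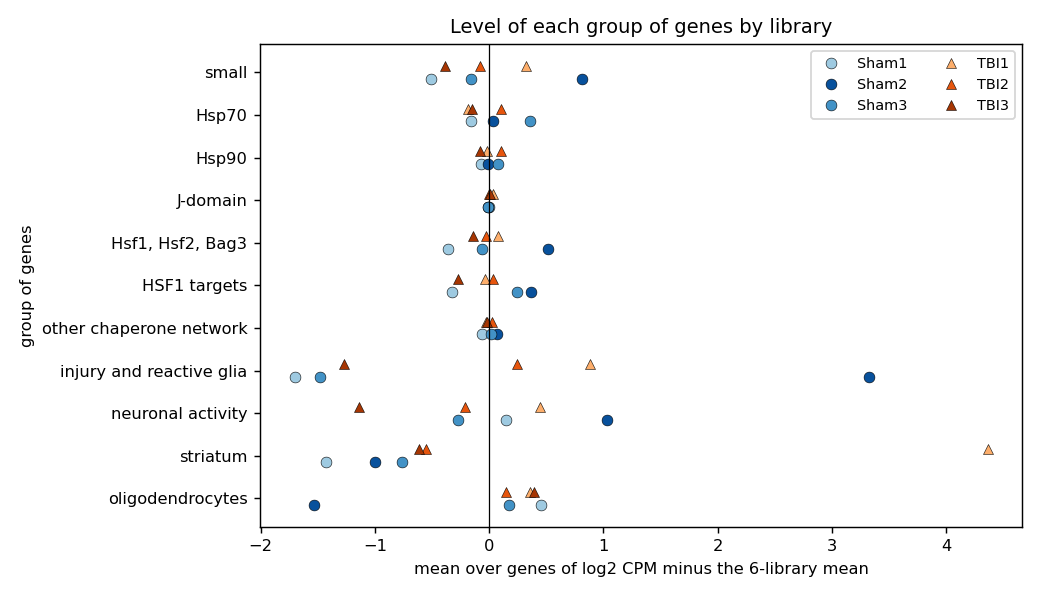
Level of each group of genes (y axis) in each library, as log2 CPM averaged across its genes after subtraction of each gene's average of 6 libraries (x axis), with circles for sham and triangles for TBI. The small heat shock proteins lie at 0.81 in Sham2, the J-domain proteins lie within 0.029 of zero in every library, and the genes of injury and reactive glia lie at 3.32 in Sham2.

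In the Hsp70 group the inducible genes Hspa1a and Hspa1b had their high value in another sham library, Sham3. Both encode inducible Hsp70, the classical HSF1 target, and they lie close together on the minus strand of chromosome 17, Hspa1b at chr17:34956436-34959238 and Hspa1a at chr17:34969190-34972156. Hspa1a was at 16.2, 18.2 and 47.5 CPM in Sham1 to Sham3 and at 13.2, 19.7 and 11.3 CPM in TBI1 to TBI3. Hspa1b was at 17.4, 16.2 and 57.3 CPM in the sham libraries and at 12.7, 18.2 and 10.2 CPM in the TBI libraries. For both genes Sham3 was more than 2 times as high as every other library, which held for 0.128% of all genes, and the other 5 libraries overlapped.

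The log2 fold changes were -0.89 ± 0.46 (SE) for Hspa1a and -1.14 ± 0.53 (SE) for Hspa1b, with adjusted p = 0.982 for both by edgeR's quasi-likelihood test. Without Sham3 they were -0.23 and -0.30. The genes share 58.8% (of Hspa1a) and 62.3% (of Hspa1b) of their exonic stretches of 50 bases, so reads could be split between them, and their sum does not depend on the split. Summed, they were at 33.6, 34.4 and 105 CPM in sham and at 25.9, 37.9 and 21.5 CPM in TBI. The difference of the summed level was -0.84 on the log2 scale, with p = 0.3 in an exact two-sided permutation test, in which 0.1 is the smallest p that 3 against 3 mice allow. Without Sham3 it was -0.30, with an exact permutation p of 0.4. The gene Gm20481, which shares 564 exonic bases with Hspa1a on the opposite strand, also had its highest level in Sham3, with 6.88 CPM against 2.02 to 2.44 CPM elsewhere.

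Hspa1a and Hspa1b varied together across the libraries, but reads could be split between them, so their levels are not independent. The part of shared reads in this was not tested. The stretches before the starts of both genes are shown as a description. They were read from the RefSeq table of GRCm38.p6 on the minus strand, bases -110 to -1 from the start, at chr17:34972157-34972266 for Hspa1a and chr17:34959239-34959348 for Hspa1b, and the capitals mark GAANNTTC, which begins at base -104 in both. Over the 250 bases before the start, 247 bases (98.8%) were equal at the same position.
Hspa1a: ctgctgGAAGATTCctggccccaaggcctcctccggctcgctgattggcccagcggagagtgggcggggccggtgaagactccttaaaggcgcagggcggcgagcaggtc
Hspa1b: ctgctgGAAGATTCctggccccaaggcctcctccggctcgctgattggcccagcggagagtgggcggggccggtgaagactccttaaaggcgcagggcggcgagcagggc

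The constitutive cytosolic Hsp70, Hspa8, which also uncoats clathrin vesicles at synapses, was the most abundant member of its group per length. It was at 728, 1317 and 1481 CPM in Sham1 to Sham3 and at 853, 1213 and 1015 CPM in TBI1 to TBI3. Sham1 was the low library, the TBI values lay inside the sham range, and the log2 fold change was -0.19 ± 0.28 (SE), with -0.44 without Sham1 and 0.00070 without Sham3. Hsph1, which encodes the Hsp110 nucleotide exchange factor of Hsp70, was at 238, 347 and 318 CPM in sham and at 329, 260 and 205 CPM in TBI, with a log2 fold change of -0.19 ± 0.22 (SE), which ran from -0.37 without TBI1 to -0.035 without TBI3. Hspa4 and Hspa4l, which encode related exchange factors, had log2 fold changes of -0.14 ± 0.12 (SE) and 0.18 ± 0.25 (SE).

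Hspa5 encodes BiP, the Hsp70 of the endoplasmic reticulum. It was at 90.7, 152 and 199 CPM in sham and at 142, 231 and 185 CPM in TBI, with Sham1 lowest, overlapping groups and a log2 fold change of 0.34 ± 0.31 (SE), which was 0.087 without Sham1 and 0.61 without Sham3. Hspa9, the mitochondrial Hsp70 mortalin, was at 248 to 306 CPM in sham and 245 to 286 CPM in TBI, and its log2 fold change was -0.014 ± 0.13 (SE). Hspa13, an Hsp70-like protein of microsomes, and Hspa14, which works at the ribosome, had log2 fold changes of -0.21 ± 0.15 (SE) and -0.087 ± 0.16 (SE), and that of Hspa13 was -0.093 without Sham2 and -0.32 without Sham1.

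Hspa2, known as the testis-enriched Hsp70 and also present in brain, had an unadjusted p of 0.0785, second to Hspa1b among the members in the edgeR fit over all libraries. Its level was 83.8, 51.0 and 56.3 CPM in Sham1 to Sham3 and 33.9, 57.3 and 38.6 CPM in TBI1 to TBI3. Sham1 was the highest library, TBI2 lay inside the sham range, and the log2 fold change was -0.56 ± 0.27 (SE), which was -0.31 without Sham1 and -0.82 without TBI2. The atypical members Hspa12a and Hspa12b, the latter of which is known from endothelium, had log2 fold changes of -0.26 ± 0.29 (SE) and 0.43 ± 0.28 (SE). Hspa12a was lowest in TBI1, without which its value was -0.0080, and Hspa12b was at 0.72 without Sham3 and 0.29 without Sham1. Hspa1l, whose exons overlap the antisense gene Gm10501 over 71.93% of their length, had 8.91 to 13.6 CPM over the 6 libraries and a log2 fold change of 0.050 ± 0.23 (SE).

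**Figure D3:**
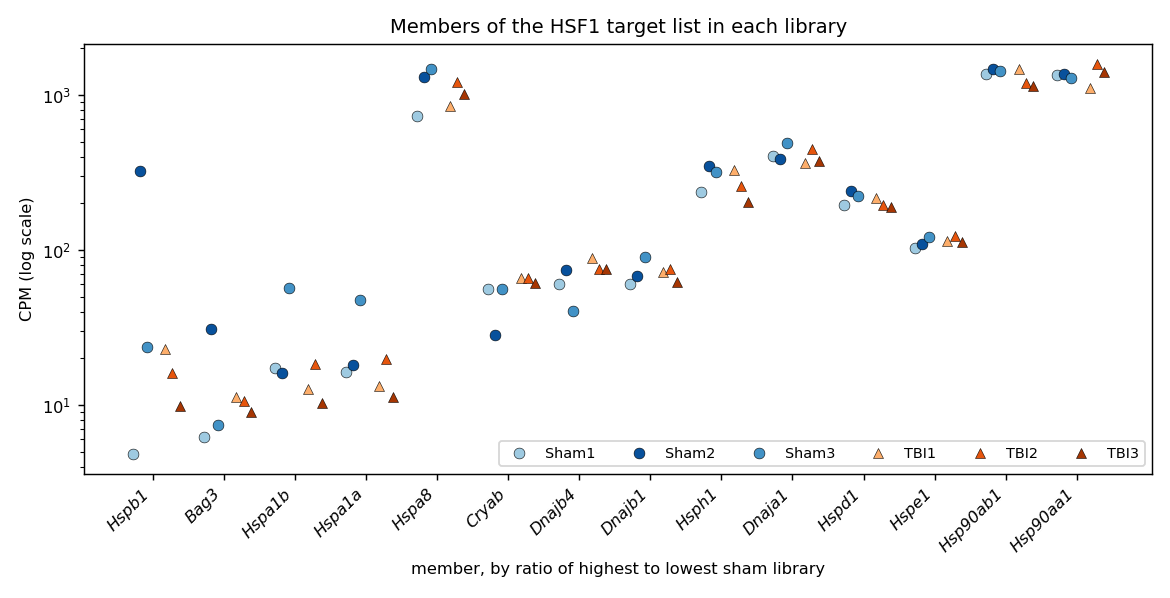
Level in CPM (y axis, log scale) of the 14 members of the HSF1 target list in each library, with circles for sham and triangles for TBI, ordered along the x axis by the ratio of the highest to the lowest sham library. Hspb1 spans 4.82 to 323 CPM within sham, Bag3 is highest in Sham2, Hspa1a and Hspa1b are highest in Sham3, and the Hsp90 genes at the right end lie close together.

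The Hsp90 group differed little between libraries. Hsp90aa1, the inducible cytosolic form, was at 1353, 1361 and 1295 CPM in sham and at 1111, 1598 and 1405 CPM in TBI, and Hsp90ab1, the constitutive cytosolic form, was at 1358, 1480 and 1429 CPM in sham and at 1463, 1202 and 1143 CPM in TBI. Their log2 fold changes were 0.037 ± 0.15 (SE) and -0.16 ± 0.13 (SE), with intervals (95%) from -0.32 to 0.40 and from -0.47 to 0.14. Hsp90b1, which encodes GRP94 of the endoplasmic reticulum, was at 280 to 376 CPM in sham and 311 to 384 CPM in TBI, with a log2 fold change of 0.15 ± 0.16 (SE). The interval of Hsp90b1 ran from -0.23 to 0.52, and none of the 3 intervals holds a change of 1.5-fold in either direction.

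The mitochondrial chaperonins Hspd1 (HSP60) and Hspe1 (HSP10) form a folding chamber for imported proteins and lie head to head on chromosome 1. Hspd1 was at 196 to 239 CPM in sham and 191 to 217 CPM in TBI, and Hspe1 was at 103 to 122 CPM and 113 to 124 CPM. The log2 fold changes were -0.13 ± 0.12 (SE) and 0.075 ± 0.11 (SE), and the groups overlapped for both. With 1 library left out they ran from -0.20 (without Sham1) to -0.063 (without Sham2) for Hspd1 and from 0.026 (without Sham1) to 0.14 (without Sham3) for Hspe1. Their exons share 112 bases on opposite strands.

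Per length, Hsp90ab1, Hsp90aa1 and Hspa8 led the members in both groups. Their mean levels were 474, 340 and 273 CPM per kb of exon in sham and 423, 349 and 239 CPM per kb in TBI. Together they held 40.9% to 44.6% of the summed level per length of all members. The small heat shock proteins held 13.6% of that sum in Sham2 and 2.75% to 4.34% in each of the other 5 libraries. Hspb1 alone held 11.2% in Sham2 and at most 0.973% elsewhere. Among the J-domain proteins, Dnaja2, Dnajc6 and Dnaja1 had the highest levels per length in sham, with 75.6, 50.7 and 49.7 CPM per kb.

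**Figure D4:**
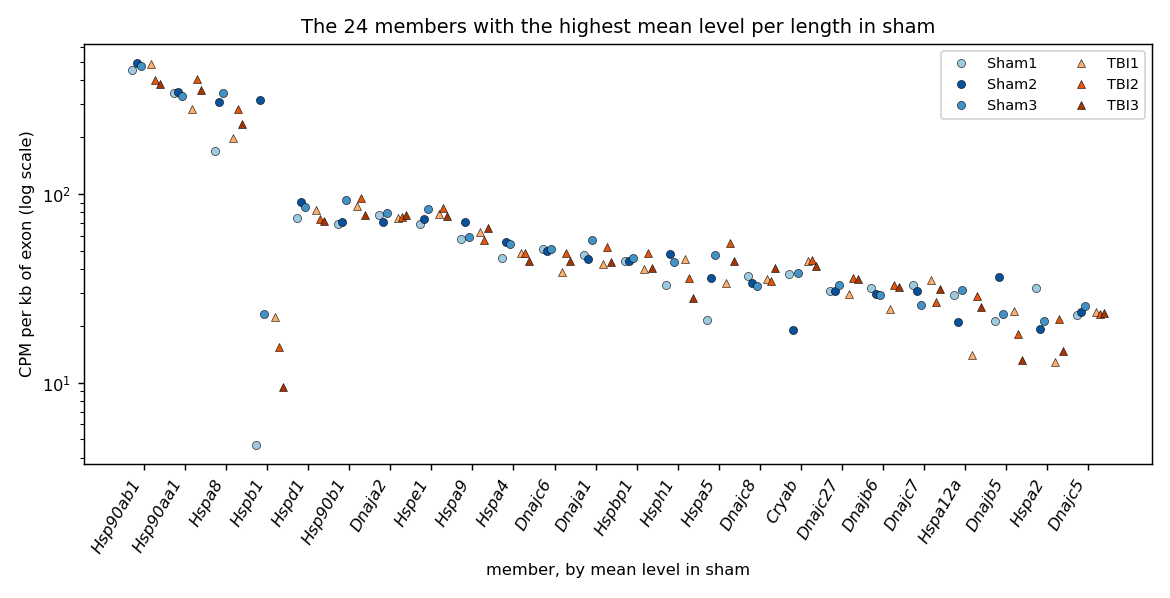
Level per length (y axis, CPM per kb of exon, log scale) in each library for the 24 members with the highest mean level in sham, ordered by that mean along the x axis, with circles for sham and triangles for TBI. Hsp90ab1, Hsp90aa1 and Hspa8 lie above the others apart from Hspb1 in Sham2, and Hspb1 has the widest range of those plotted.

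Of the 45 J-domain proteins 40 were tested, of which 19 were higher and 21 lower in TBI, and 30 (75.0%) lay within 0.2 of zero on the log2 scale, beside 51.1% of all tested genes. The range between libraries of 1 group was over 2-fold for 1 of them in sham (Dnajb13, at most 1.56 CPM in sham) and for 2 in TBI, Dnajc12 and Dnajc1. Dnajb13, which is known from cilia and flagella, had the largest positive log2 fold change of the tested members, 0.70 ± 0.62 (SE), which was 1.54 without Sham1 and 0.30 without Sham2. It was at 1.56, 0.299 and 0.625 CPM in Sham1 to Sham3 and at 1.57, 1.36 and 1.10 CPM in TBI1 to TBI3, lowest in Sham2 as the ependyma markers were, and their part in its level was not tested. Over all 71 tested members it was over 2-fold for 10 in sham and 6 in TBI, beside 26.8% and 27.8% of all genes. Dnajb7, Dnajb8, Dnajc22, Dnajc5b and Dnajc5g were too low to test, and Dnajc5g had 0 counts in every library.

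Dnajb4, a heat-inducible class B co-chaperone of Hsp70, had the smallest p of its group, 0.0895. It was at 60.6, 74.2 and 40.2 CPM in Sham1 to Sham3 and at 88.3, 75.7 and 75.4 CPM in TBI1 to TBI3. The groups did not overlap, Sham2 lay just below the TBI libraries, and the log2 fold change was 0.45 ± 0.23 (SE) with an adjusted p of 0.982 by edgeR's quasi-likelihood test. It was 0.24 without Sham3, the lowest library, and 0.66 without Sham2. Dnajb2, a neuronal J-domain protein with ubiquitin-interacting motifs, was at 79.9 to 86.2 CPM in sham and 86.6 to 103 CPM in TBI, and its log2 fold change was 0.22 ± 0.11 (SE). For Dnajc24, which takes part in the synthesis of diphthamide, the ranges were 6.77 to 7.42 CPM and 8.43 to 9.33 CPM.

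Dnajc6, or auxilin, brings Hspa8 to clathrin-coated vesicles in neurons. It was at 302, 295 and 302 CPM in sham and at 227, 286 and 262 CPM in TBI, all lower than in sham, with a log2 fold change of -0.22 ± 0.12 (SE), which was -0.13 without TBI1 and -0.30 without TBI2. Dnajb14, a protein of the endoplasmic reticulum membrane, was at 143 to 148 CPM in sham and 132 to 141 CPM in TBI. Dnajc5, the cysteine string protein of synaptic vesicles, was at 159 to 177 CPM in sham and 161 to 165 CPM in TBI, and its log2 fold change was -0.040 ± 0.099 (SE).

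Dnajb5 had the largest negative log2 fold change of the tested J-domain proteins, -0.54 ± 0.29 (SE). It was at 125, 214 and 137 CPM in Sham1 to Sham3 and at 143, 107 and 78.4 CPM in TBI1 to TBI3. Sham2 was the highest library and TBI3 the lowest, and without Sham2 the value was -0.26 ± 0.26 (SE). The neuronal activity genes stood the same way, with 7 of 10 highest in Sham2 and 8 of 10 lowest in TBI3, and their part in the level of Dnajb5 was not tested.

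The main cytosolic partners of Hsp70 differed little between the groups. Dnaja1 was at 388 to 492 CPM in sham and 366 to 449 CPM in TBI, with a log2 fold change of -0.11 ± 0.14 (SE), which was -0.010 without Sham3 and -0.22 without TBI2. Dnaja2 was at 211 to 235 CPM and 222 to 229 CPM, with a log2 fold change of 0.00066 ± 0.098 (SE). Dnajb1, the inducible HSP40, was at 60.5, 67.8 and 90.7 CPM in Sham1 to Sham3, where Sham3 was the highest as it was for Hspa1a and Hspa1b, and at 62.2 to 75.3 CPM in TBI. Dnajb6, which suppresses the aggregation of polyglutamine proteins, had a log2 fold change of -0.015 ± 0.14 (SE).

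Some other J-domain proteins varied by library. Dnajc17, known from splicing, was at 8.49 to 9.62 CPM in sham and 9.10 to 13.6 CPM in TBI, with a log2 fold change of 0.37 ± 0.21 (SE). Dnajc9, a histone chaperone, had 0.21 ± 0.15 (SE). Dnajc12, a co-chaperone of aromatic amino acid hydroxylases, reached 22.0 CPM in TBI3 and 9.56 to 12.9 CPM in the other libraries, and its log2 fold change of 0.36 was -0.059 without TBI3. Dnajc1 had its lowest level in the same library, 11.1 CPM, against 24.2 to 31.2 CPM elsewhere, and its log2 fold change of -0.38 was -0.067 without TBI3. The 4 thalamus markers summed to 518 CPM in TBI3 against 76.8 to 337 CPM elsewhere, with 3 highest in TBI3 and 1 in TBI2. Their part in the levels of Dnajc12 and Dnajc1 was not tested.

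Among the regulators, Bag3 was highest in Sham2, as were Hspb1, Hspb6 and Hspb8. BAG3 is a co-chaperone that links Hsp70 to HSPB8 and to selective autophagy, and its gene is an HSF1 target. Bag3 was at 6.22, 31.1 and 7.45 CPM in Sham1 to Sham3 and at 11.2, 10.5 and 8.99 CPM in TBI1 to TBI3. Sham2 was 2.77 times as high as the next library, and Sham1 and Sham3 lay below every TBI library. The log2 fold change was -0.54 ± 0.61 (SE) over all libraries, and without Sham2 it was 0.58 ± 0.21 (SE) with an unadjusted p of 0.0351 and an adjusted p of 0.997 by edgeR's quasi-likelihood test. Of the 71 tested members, Bag3 and Hspb1 were the 2 more than 2 times as high in Sham2 as in any other library. That held for 2.09% of all genes, so 2 of 71 is near the background.

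The transcription factors of the response stayed within narrow ranges. Hsf1 was at 21.7, 22.5 and 24.7 CPM in sham and at 27.0, 23.2 and 22.6 CPM in TBI, with a log2 fold change of 0.079 ± 0.14 (SE). Hsf2 was at 17.1, 20.6 and 23.3 CPM in sham and at 18.9, 18.9 and 18.1 CPM in TBI, with a log2 fold change of -0.12 ± 0.16 (SE), which was -0.021 without Sham3 and -0.23 without Sham1. The cofactor Hspbp1, a nucleotide exchange factor of Hsp70, had a log2 fold change of -0.053 ± 0.12 (SE), and Hspbap1, named for its binding to HSPB1, had -0.38 ± 0.36 (SE), which was -0.048 ± 0.34 (SE) without Sham2, its highest library.

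Of a textbook list of 14 HSF1 targets among the members, none passed the test between TBI and sham. There 4 were higher and 10 lower in TBI, and the median log2 fold change was -0.15 beside 0.0091 over all tested genes. Of the 14, 5 were highest in Sham2 and 5 in Sham3, 5 were lowest in Sham1 and 5 in TBI3, and none was highest in Sham1 or TBI3. Each of these counts of 5 is 35.7% of the list, beside 23.7% and 10.5% of all tested genes highest in Sham2 and Sham3 and 15.9% and 18.0% lowest in Sham1 and TBI3. Among the 71 tested members these shares were 29.6%, 25.4%, 28.2% and 19.7%. Of the J-domain proteins, 30% were highest in Sham3 and 25% lowest in Sham1. For the endoplasmic reticulum list these were 37.5% and 62.5%, and for the Hsp90 group 0% and 33.3%. High levels in Sham3 and low ones in Sham1 were therefore not particular to the HSF1 targets. The list shares genes with the groups already described. Members of other compartments had medians close to zero but went both ways. The median was -0.0063 for the 8 genes of the endoplasmic reticulum, which ran from -0.38 (Dnajc1) to 0.34 (Hspa5), 0.012 for 6 mitochondrial genes and -0.084 for 5 synaptic and clathrin genes, and 0 of each list passed the test.

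Of the 78 members, 62 had a promoter window in the RefSeq table, which spans 250 bases before and 50 after the start. The letters GAANNTTC, which read the same on both strands, stood in 24.2% of the members with a window (15 genes) and in 9.04% of the 27025 genes of the table. For TTCNNGAA, the other phase of the element, the shares were 9.68% and 9.60%. The longer forms of the element, in which either match is continued by another unit after 2 bases so that it holds 3 units and both shorter forms, stood in 6.45% of the members, namely Dnajb6, Hspd1, Hspe1 and Hsph1, and in 0.662% of all genes. Hspd1 and Hspe1 hold the same 18 bases, read from opposite strands, so these are 4 genes but 3 stretches of DNA.

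Short stretches around the match are shown for a gene that was high in Sham2 (Hspb6) and for 2 genes with the longer form (Hspe1 and Dnajb6), with the match in capitals. In Hspe1 the capitals span 2 overlapping matches of the longer form, 18 bases with 4 units, and in Dnajb6 a single match of 13 bases. They are on the plus strand of GRCm38.p6 in the RefSeq table, at chr7:30553175-30553204 for Hspb6, chr1:55088053-55088082 for Hspe1 and chr5:29735846-29735875 for Dnajb6. The stretches of Hspe1 and Dnajb6 lie in annotated exons of other transcripts or of the neighbouring gene. A match is a description of the letters and not evidence of binding.
Hspb6: attattGAAGTTTCtaaataaggaatacta
Hspe1: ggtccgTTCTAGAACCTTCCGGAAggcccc
Dnajb6: ctccgaGAATCTTCCGGAAcgctagaccag

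Leaving Sham2 out moved the median of the small heat shock proteins more than that of any other group of members. Without it, 5 of the 7 tested small members were higher in TBI and the median was 0.19 on the log2 scale, against 1 of 7 and -0.11 with it. This median of 7 genes was unsteady in general. It went as low as -0.40 when a library other than Sham2 was left out, and its SD between replicates was 0.29. Without Sham2, 36 of all 71 members were higher and 35 lower, with a median of 0.0061 beside 0.025 over all genes. An unadjusted p under 0.05 by edgeR was reached by 4 members, Dnajb4, Bag3, Hspb6 and Hspa1b, beside 3.39% of all genes, and 0 were called. The injury and reactive glia list, drawn up after values had been seen, had a median of -1.47 with Sham2 and 1.47 without it. Without Sham2, 10 of its 11 genes were higher in TBI. All 11 were highest in Sham2, so a rise of their median without that library was fixed in advance and is only a description. The part of these genes in the levels of Hspb1, Hspb6 and Bag3 was not tested.

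**Figure D5:**
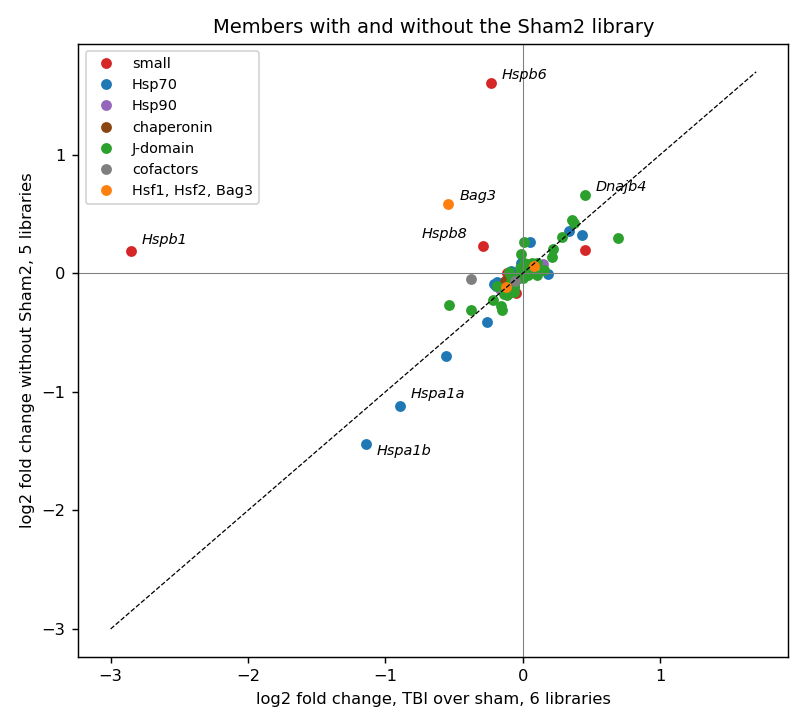
Log2 fold change of TBI over sham without Sham2 (y axis, 5 libraries) against that with all 6 libraries (x axis), 1 point per tested member, coloured by group, with the dashed line marking equal values. Hspb1, Bag3, Hspb6 and Hspb8 lie above the line and cross zero, from -2.85 to 0.19 for Hspb1, while Hspa1a and Hspa1b lie below it.

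Each of the other libraries was left out in the same way. An unadjusted p under 0.05 was then reached by 5 members without Sham1 (beside 2.49% of all genes), 1 without Sham3 (4.52%), 2 without TBI1 (4.33%), 1 without TBI2 (5.82%) and 1 without TBI3 (2.88%), with 0 members called each time by edgeR. Without Sham1 the 5 were Hspb1, Hspa8, Dnajb13, Hspa1b and Hspa1a, and without Sham3 it was Hspa12b. Hsp90ab1 and Dnajb5 passed without TBI1, Hspa2 without TBI2 and Dnajc17 without TBI3. Hspa1b was the only tested member to reach an unadjusted p under 0.05 without Sham1 and again without Sham2.

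Of 36 further genes of the chaperone network, among them the BAG proteins, Hsp90 co-chaperones, nucleotide exchange factors, ubiquitin genes and the CCT chaperonin, 0 were called, 16 were higher and 20 lower in TBI, and the median log2 fold change was -0.023. Sil1, the nucleotide exchange factor of BiP, was the only one of the 36 at an unadjusted p under 0.05 by edgeR, beside 4.29% of all genes. It was at 20.6, 13.9 and 18.8 CPM in sham and 30.9, 23.4 and 25.0 CPM in TBI. Its log2 fold change was 0.57 ± 0.20 (SE) with an adjusted p of 0.982 by edgeR's quasi-likelihood test. The groups did not overlap for Sil1 and Hsf4, higher in TBI, and for Bag4, Cct5 and Cct7, lower in TBI, beside 4.77% and 5.45% of all genes. The 8 subunits of the CCT chaperonin, which folds actin and tubulin, were highest in Sham2 in 7 of 8 cases, and their median on the log2 scale was -0.14 with that library and -0.067 without it. The cold-inducible RNA-binding proteins Cirbp and Rbm3 had log2 fold changes of 0.013 ± 0.23 (SE) and -0.39 ± 0.25 (SE).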

How the data were processed

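FastQC, HISAT2 and StringTie are the tools the authors named for read quality, alignment to GRCm38 and quantification. The deposited files hold estimated counts, 1 whole number per gene, not normalized by the authors. No source used here gives the tool versions, the annotation release or how StringTie's coverage became counts. Symbols of GENCODE vM21 were found for 52403 of the 52550 gene identifiers. R 4.3.3 with edgeR 4.0.16 was used with filterByExpr, TMM scaling, the quasi-likelihood test and Benjamini-Hochberg adjustment over 18795 genes, and DESeq2 1.42.0 as an alternative. The standard error of a log2 fold change is its size divided by the square root of F. Levels per length are CPM per kb of merged exons. The fit was tested on simulated data. Alternatives were RLE and library-total scaling, other filters on low counts, DESeq2, each library left out and the replicate number as a block. Named members were all tested small, Hsp70, Hsp90, chaperonin and regulator genes, and J-domain genes chosen by p, level and role. Dnajb14, Hsp25-ps1, Gm9817, Gm20481, Slc17a7, Snap25, Wfs1, Sil1, Hsf4, Bag4, Cct5 and Cct7 were named after their values were seen. Members and lists were chosen with earlier results of these data known. Replicates are separate mice. The replicate number gave no pairing. Protein sequences were not used here.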

Additional observations from a re-analysis of the deposited data

How the results depend on the processing

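The count of members called was 0 under every alternative run. DESeq2 called 46 genes with its defaults and 43 on the filtered genes, where 3 and 2 members had an unadjusted p under 0.05, and edgeR called 0. With each library left out of the edgeR fit, 0 to 1 genes were called and 1 to 5 members had an unadjusted p under 0.05. The median log2 fold change then ran from -0.069 to 0.0061 over the members, from -0.40 to 0.19 for the small heat shock proteins, from -0.21 to -0.063 for the Hsp70 group, from -0.19 to -0.064 for the HSF1 targets, from -0.093 to 0.14 for the Hsp90 group and from -0.025 to 0.0092 for the J-domain group. The named members that changed sign when a library was left out ran from -3.40 to 0.19 for Hspb1, -1.02 to 1.61 for Hspb6, -0.90 to 0.58 for Bag3, -0.55 to 0.23 for Hspb8, -0.53 to 0.058 for Hspb3, -0.24 to 0.23 for Hspb2, -0.16 to 0.14 for Hspb11, -0.065 to 0.27 for Hspa1l, -0.21 to 0.020 for Hspa14, -0.0040 to 0.42 for Hspa4l, -0.44 to 0.00070 for Hspa8, -0.068 to 0.085 for Hspa9, -0.093 to 0.17 for Hsp90aa1, -0.0041 to 0.13 for Hsf1, -0.091 to 0.11 for Dnajb6, -0.18 to 0.12 for Dnajb1, -0.059 to 0.56 for Dnajc12 and -0.043 to 0.026 for Dnaja2. Among the other named members, these kept their sign but moved by over 1.5 times, between -0.21 and -0.087 for Hspa4, -0.28 and -0.098 for Hsp90ab1, 0.063 and 0.29 for Hsp90b1, -0.16 and -0.0030 for Hspbp1, 0.12 and 0.29 for Dnajc9, -0.68 and -0.067 for Dnajc1 and -0.069 and -0.0019 for Dnajc5. Dnaja2 also changed sign with RLE scaling (-0.00054), a filter of at least 1 count (-0.0020), DESeq2 with its defaults (-0.0066) and on the filtered genes (-0.00053). With the replicate number as a block, Hspb6 was at 0.36, Hspb1 at -1.20 and Bag3 at -0.13, 0 members were called, and of the members refitted only Hspb6 changed sign (Dnajb14 was not among them). The correlations of deviations between same-numbered libraries were -0.0996, -0.065 and 0.15, so the numbers mark no pairs. Hspb7, Hspb9 and 5 J-domain proteins were too low to test at this depth.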
